A study of Mus musculus with 8 samples.

Results

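The genes described here are those of cholesterol and fatty acid synthesis, measured in 2 sorted fractions of mouse plasmacytoid dendritic cells. The list holds 38 genes, chosen by name from the array's probe annotation out of 36095 gene and transcript names, with the newer symbol accepted for Sc4mol (now Msmo1). It has 18 enzyme genes of the sterol branch, 10 genes of fatty acid synthesis, elongation and desaturation, 6 genes of sterol sensing and transfer, and 4 genes of the liver X receptor (LXR) and sterol efflux. Where a gene had several probes, the one with the highest mean signal stood for it. A gene was tested where that probe was well above background on 4 or more of the 8 arrays, which 36 of the 38 genes reached. The other two were the desaturase gene Scd1, well above background on 0 of 8 arrays, and the efflux transporter gene Abca1, on 3 of 8.

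Cells make cholesterol from acetyl-CoA by way of mevalonate, isoprenoid units, squalene and lanosterol, and make fatty acids from the same acetyl-CoA by way of malonyl-CoA. Both branches are driven by the SREBP transcription factors, which the sterol sensor Scap escorts out of the endoplasmic reticulum when membrane sterol is low and which the Insig proteins hold back when it is high. LXR, which is activated by oxysterols, drives genes that export cholesterol and also the gene of SREBP-1. Dividing cells use both branches to supply new membrane.

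Plasmacytoid dendritic cells (pDC) are the dendritic cells known for making type I interferon when their endosomal Toll-like receptors sense nucleic acid. The cells came from cultures of female BALB/c bone marrow precursors that had matured with the mouse cytokine Flt3 ligand, and magnetic followed by flow cytometric sorting gave a Sca-1- and a Sca-1+ fraction. Each fraction was hybridised on 4 single-colour Agilent arrays, and the study asked whether Sca-1 marks developmental stages of pDC with different TLR9 responses. Strain, sex, culture and RNA kits are the same in both groups, the labels name no stimulus, and a code 0h in the sample descriptions is not explained there. Both groups carry the replicate numbers 1 to 4, and the file headers place the 2 arrays of a number on 1 slide. Whether the replicates stand for separate cultures or animals is not given in the labels, so the p-values reflect a spread between samples that may be technical only. In such bulk samples, fewer cells that express a gene and less RNA per cell cannot be told apart.

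Between 45.9% and 54.9% of spots were well above background per array, and the 75th percentile of processed signal ranged from 171 to 503. Slide 4 holds replicate 4 of both groups and was scanned in a second session with another version of the extraction protocol, per the file headers. Ly6a, which encodes Sca-1, was on average at 2.78 on the Sca-1- and at 7.43 on the Sca-1+ arrays (SD 0.44 and 0.28, n = 4 each). A level here is a log2 signal relative to its array's 75th percentile, so a difference of 1 between levels is a doubling. It compares 1 probe across arrays and not 1 gene with another. All 12 pDC marker genes passed the detection filter, with mean levels of 6.68 to 6.96 on the Sca-1- arrays and 7.0 to 7.20 on the Sca-1+ arrays. Of the 12, 10 were on average higher and 2 lower in Sca-1+ pDC, with log2 differences of -0.04 to 0.94. With the slide as a block in limma, 2 of them, Irf7 and Ccr9, were higher at an adjusted p under 0.05. In the unpaired fit 0 of the 12 passed that threshold. Of 7 T and NK cell genes, Cd3d, Cd3g, Ncr1 and Klrb1c were well above background on 0 of 8 arrays, and Cd3e, Lck and Prf1 were so on all 8, with mean levels of 2.18 and 2.36 for Cd3e in Sca-1- and Sca-1+ pDC. Of the B cell genes, Pax5, Ms4a1 and Igll1 were well above background on 0 of 8 arrays, and Cd79a, Cd79b and Vpreb1 on all 8. Of 10 conventional dendritic cell genes, 8 were tested. With the slide as a block in limma, Zbtb46 (-1.20, adjusted p = 0.0131) and Cd24a (-0.87, adjusted p = 0.0167) were lower and Sirpa (0.54, adjusted p = 0.0420) higher in Sca-1+ pDC. In that fit 6.22% of all tested genes passed an adjusted p of 0.05 in either direction. In the unpaired fit 0 of the 8 passed it. The list had no common direction: 4 genes were lower on all 4 slides, and 4 were higher on all 4 (Clec9a, Itgam, Sirpa and Clec10a). Of 10 monocyte, macrophage and granulocyte genes, 7 were tested, and Csf1r was lower with the block (-1.19, adjusted p = 0.00638). Unpaired, 0 of these 7 passed an adjusted p of 0.05. The mean level of that list was 0.24 to 1.43 on the Sca-1- and -0.60 to 1.17 on the Sca-1+ arrays, and that of the conventional dendritic cell list was 2.73 to 3.46 and 2.60 to 3.29. Of 5 basophil and mast cell genes 4 were tested and 0 called in either limma fit (0 at an unadjusted p under 0.05), and their mean level varied between arrays, from -5.14 to 0.14 and from -5.28 to 0.35. In each fraction the lowest mean level of this list was that of replicate 4. All 20 genes of a proliferation list were lower in Sca-1+ pDC, with a median log2 difference of -2.02, and their mean level was 2.84 to 3.51 on the Sca-1- arrays and 1.15 to 1.61 on the Sca-1+ arrays. The part of the proliferation and marker genes in the values of the lipid genes was not tested.

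Fdps and Elovl6 were lower in Sca-1+ than in Sca-1- pDC at an adjusted p of 0.05 in a fit that compares within slides, though not in the unpaired one, and the other 34 genes passed neither fit. Differences are Sca-1+ minus Sca-1- throughout. Of the 36 tested genes, 28 had a negative and 8 a positive difference, where 44.6% of all tested genes were negative, with a median of -0.14 and extremes of -1.19 (Elovl6) and 0.33 (Srebf1). The median over all 19825 tested genes was 0.03. In the unpaired limma fit, 0 of the 36 genes passed an adjusted p of 0.05, where 1.71% of all tested genes did. At an unadjusted p under 0.05 stood 2 of them, Fdps and Elovl6, beside 8.96% of all tested genes.

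With the slide as a block, which compares the 2 fractions within each slide, Fdps and Elovl6 passed the adjusted threshold, both lower in Sca-1+ pDC. In that fit 4.12% of all tested genes were called lower and 6.22% in either direction. The share of 2 in 36 lies between these values, so the count of calls does not set the 36 genes apart. Of the 36 genes, 12 were lower at an unadjusted p under 0.05 in that fit, against 11.8% of all tested genes, and none of the 36 was higher at that p. The 12 were Fdps, Elovl6, Scd2, Mvd, Fasn, Hsd17b7, Hmgcs1, Idi1, Stard4, Tm7sf2, Cyp51 and Lss. Without any model, 16 of the 36 genes were lower in the Sca-1+ sample on all 4 slides, against 17.8% of all tested genes, and 2 were higher on all 4 slides (Insig1 and Srebf1), against 18.4%. The lowest Sca-1- array lay above the highest Sca-1+ array for 1 gene only, Elovl6, where 5.03% of all tested genes were separated in that direction. Among all tested genes, 10% had a difference below -0.31. Of the 36 genes, 11 were below that value and 0 were among the 10% of all tested genes with a difference above 0.34.

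**Figure D1:**
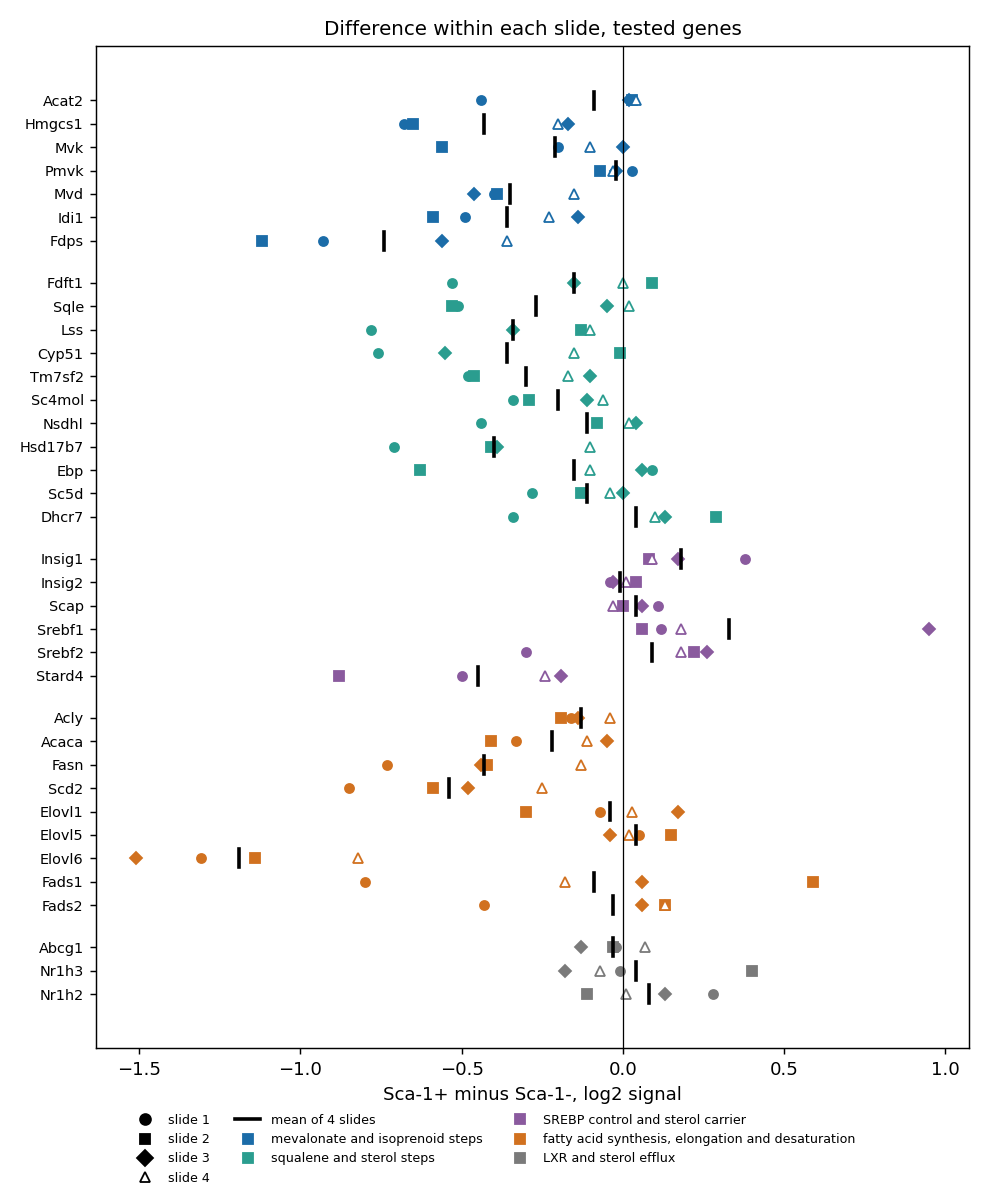
Difference between the Sca-1+ and the Sca-1- sample of each slide (x axis, log2 signal) for the 36 tested genes (y axis), coloured by group of genes. Symbols are slides 1 to 4, the black bar is their mean, and most sterol enzyme symbols lie left of 0, with Fdps (-0.74) and Elovl6 (-1.19) farthest to the left in their groups.

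The mevalonate and isoprenoid steps turn acetyl-CoA into farnesyl diphosphate, the last intermediate shared by sterols, dolichol, ubiquinone side chains and protein prenylation. All 7 genes of these steps had a negative difference, with a median of -0.35, and 4 were lower on all 4 slides (Hmgcs1, Mvd, Idi1 and Fdps). Fdps, the synthase of farnesyl diphosphate, was at 6.15, 5.96, 5.57 and 6.13 in Sca-1- replicates 1 to 4. It was at 5.22, 4.84, 5.0 and 5.77 in Sca-1+ replicates 1 to 4. Of the Sca-1+ arrays, only replicate 4 reached into the Sca-1- range, where it lay above Sca-1- replicate 3. The group means were 5.95 ± 0.27 and 5.21 ± 0.41 (SD, n = 4 each), a 1.67-fold lower signal. The log2 difference was -0.74 ± 0.23 (SE; 95% confidence interval -1.27 to -0.22), with limma's adjusted p = 0.262 unpaired and 0.0441 with the slide as a block. Fdps was lower by 0.93, 1.12, 0.56 and 0.36 on slides 1 to 4, so slide 4 gave the smallest difference. In the unpaired fit without replicate 4 of both groups its difference was -0.87 with an adjusted p of 0.0469. With the block and without the pair numbered 1, 2 or 3, its adjusted p was 0.148, 0.103 and 0.158, and it was 0.0545 with the block and array weights and 0.195 with the block and no detection filter. Its probe lies on chr3:88897549-88897608 (mm9).

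Mvd, the decarboxylase that makes isopentenyl diphosphate, was at 2.75, 2.58, 2.64 and 3.04 in Sca-1- and at 2.34, 2.18, 2.18 and 2.90 in Sca-1+ replicates 1 to 4. Both slide 4 samples were the highest of their group, and the groups overlapped through the Sca-1+ sample of that slide. Its difference was -0.35 ± 0.20 (SE; interval -0.80 to 0.10), with an adjusted p of 0.755 unpaired and 0.0770 with the block in limma. Hmgcs1, which makes the HMG-CoA that the pathway's rate-limiting reductase acts on, was at 5.53 ± 0.39 in Sca-1- and 5.11 ± 0.46 in Sca-1+ pDC (SD, n = 4 each). Its 4 slide differences were -0.68, -0.65, -0.17 and -0.20. Idi1, the isomerase of isopentenyl diphosphate, was at 4.51 ± 0.46 and 4.14 ± 0.52 (SD, n = 4 each), with slide differences of -0.49, -0.59, -0.14 and -0.23. For Hmgcs1 and Idi1, slides 1 and 2 thus held the larger differences, and limma's adjusted p with the block was 0.109 and 0.110.

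The remaining genes of these steps were closer to 0. The mevalonate kinase gene Mvk had a difference of -0.21 (interval -0.67 to 0.24), and its 2 samples on slide 3 were both at 4.01. Acat2, the cytosolic thiolase that starts the pathway, had a difference of -0.09 (interval -0.71 to 0.54), with a negative value on slide 1 only. Pmvk, the phosphomevalonate kinase, was at 5.31 ± 0.11 and 5.29 ± 0.12 (SD, n = 4 each), and its interval of -0.30 to 0.26 was the narrowest of the 36 genes.

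The squalene and sterol steps join 2 farnesyl units, close the ring and trim lanosterol to cholesterol. Of their 11 genes, 10 had a negative and 1 a positive difference, with a median of -0.20, and 6 were lower on all 4 slides (Lss, Cyp51, Tm7sf2, Sc4mol, Hsd17b7 and Sc5d). None passed an adjusted p of 0.05 in either limma fit. With the block, 4 were lower at an unadjusted p under 0.05, against 11.8% of all tested genes. Hsd17b7, the 3-ketosteroid reductase of the demethylation complex, was at 0.83, 0.25, 0.29 and 0.79 in Sca-1- and at 0.13, -0.16, -0.11 and 0.69 in Sca-1+ replicates 1 to 4. The Sca-1+ arrays of slides 1 to 3 lay below every Sca-1- array, and that of slide 4 lay among them. Its difference was -0.40 ± 0.24 (SE; interval -0.94 to 0.14), with an adjusted p of 0.782 unpaired and 0.105 with the block in limma. Sqle, the squalene epoxidase, was at 5.41, 5.11, 4.87 and 5.24 in Sca-1- and at 4.89, 4.58, 4.82 and 5.27 in Sca-1+ replicates 1 to 4. Its slide differences of -0.51 and -0.53 on slides 1 and 2 stood beside -0.05 and 0.02 on slides 3 and 4, so the gene was lower by more than 0.05 on 2 slides only.

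Cyp51, the lanosterol demethylase, had a difference of -0.36 (interval -1.01 to 0.28), made up of -0.76, -0.01, -0.55 and -0.15 on slides 1 to 4. Lss, the lanosterol synthase that closes the ring, had a difference of -0.34 (interval -1.24 to 0.56), and -0.78 on slide 1 was the largest of its 4 slide values. Tm7sf2, a sterol reductase, had a difference of -0.30 (interval -0.85 to 0.25), with all 4 slides between -0.48 and -0.10. Sc4mol, the sterol methyl oxidase, was lower by 0.34 to 0.06 on the 4 slides. Sc5d, the sterol desaturase, had a difference of -0.11 and was lower by less than 0.01 on slide 3. Fdft1, the squalene synthase, Ebp, the sterol isomerase, and Nsdhl, a dehydrogenase of the demethylation complex, had differences of -0.15, -0.15 and -0.11, each with 2 of 4 slides lower. A second detected probe of Fdft1 had a difference of 0.40 and so the opposite sign, the only such case among the 15 other detected probes of 14 genes. Dhcr7, which makes the last reduction to cholesterol, had the 1 positive value, 0.04 (interval -1.09 to 1.18). Its level ran from 1.19 to 2.96 among the Sca-1- arrays alone.

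Over the 18 sterol enzyme genes together, 17 differences were negative, the median was -0.24 and 10 genes were lower on all 4 slides. The medians within slides 1 to 4 were -0.46, -0.34, -0.10 and -0.10, beside 0.07, -0.04, 0.02 and 0.01 for all tested genes. The sterol median was thus below that of all tested genes on each slide, by more on slides 1 and 2. Of the 18 genes, 7 were below the 10th percentile of all tested genes. Without Sca-1- replicate 4, which leaves slide 4 in 1 group only, 13 of the 18 differences were negative and the median was -0.14. Without Sca-1+ replicate 4 the median was -0.43.

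**Figure D2:**
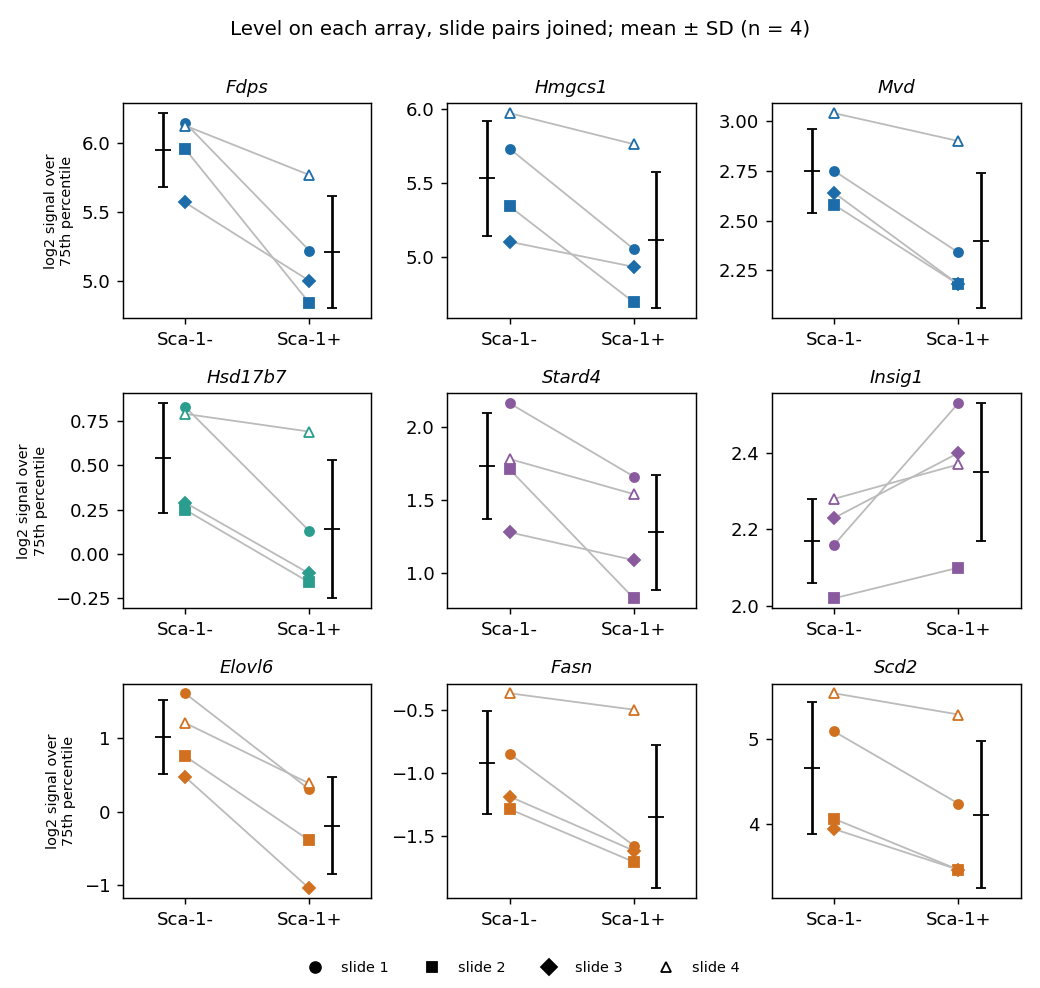
Level on each array (y axis, log2 signal over the array's 75th percentile) in the Sca-1- and Sca-1+ samples for 9 genes, with lines joining the 2 arrays of a slide and bars giving mean ± SD (n = 4). Fdps, Mvd, Hsd17b7, Stard4, Insig1, Elovl6 and Fasn follow the rule for named genes, and Hmgcs1 and Scd2 were added after their values were seen. Sqle, Nr1h2 and Nr1h3, which the rule also names, are not drawn, and the slide differences of each had both signs. Among the genes drawn, all lines slope downward except those of Insig1, which lie between 2.02 and 2.53.

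The sequences just before the transcription starts are shown for 4 genes lower on all 4 slides, because the SREBP factors and the factor NF-Y act through short elements there. RefSeq promoter entries (GRCm38.p6) were matched for 30 of the 38 genes, and the 250 bases before the start were searched on both strands for TCACNCCAC, a sterol regulatory element, CCAAT, the box bound by NF-Y, and GGGCGG, the GC box. Hmgcs1 is printed as the only gene of the 30 that holds TCACNCCAC, and Idi1, Mvd and Elovl6 were chosen after their values were seen. Capitals mark TCACNCCAC and CCAAT on either strand, so that ATTGG is CCAAT read on the other strand. The 4 windows lie at chr13:119690101-119690350 on the plus strand (Hmgcs1), chr13:8885356-8885605 on the plus strand (Idi1), chr8:122443423-122443672 on the minus strand (Mvd) and chr3:129532136-129532385 on the plus strand (Elovl6).
Hmgcs1: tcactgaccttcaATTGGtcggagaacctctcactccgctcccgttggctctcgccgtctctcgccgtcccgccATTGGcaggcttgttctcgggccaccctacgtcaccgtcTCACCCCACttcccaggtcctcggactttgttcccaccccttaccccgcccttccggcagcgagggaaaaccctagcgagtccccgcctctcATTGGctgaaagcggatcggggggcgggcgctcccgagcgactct
Idi1: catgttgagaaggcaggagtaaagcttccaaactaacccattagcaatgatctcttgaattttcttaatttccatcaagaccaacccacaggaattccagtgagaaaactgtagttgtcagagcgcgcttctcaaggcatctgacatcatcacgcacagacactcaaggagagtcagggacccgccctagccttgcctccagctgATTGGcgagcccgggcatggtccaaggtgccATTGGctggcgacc
Mvd: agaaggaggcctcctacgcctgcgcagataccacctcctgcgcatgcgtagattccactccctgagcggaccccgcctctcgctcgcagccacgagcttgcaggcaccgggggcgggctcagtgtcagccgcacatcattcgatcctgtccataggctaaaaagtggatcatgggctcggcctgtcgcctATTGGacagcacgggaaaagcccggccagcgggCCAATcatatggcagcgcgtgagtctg
Elovl6: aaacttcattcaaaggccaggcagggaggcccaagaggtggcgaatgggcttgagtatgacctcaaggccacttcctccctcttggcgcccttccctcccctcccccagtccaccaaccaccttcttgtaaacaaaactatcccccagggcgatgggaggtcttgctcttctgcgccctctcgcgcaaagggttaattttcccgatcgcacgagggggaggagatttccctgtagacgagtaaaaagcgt
The Hmgcs1 window has the sterol regulatory element letters 128 bases before the start and 3 CCAAT boxes, the nearest 40 bases before it. The Idi1 and Mvd windows have 2 CCAAT boxes each, the nearest 9 and 22 bases before the start, and the Elovl6 window has neither set of letters. CCAAT was present before 14 of the 15 matched sterol enzyme genes (93.3%) and 3 of the 7 matched fatty acid genes (42.9%), against 40.4% of the genes tested on the arrays that had an entry. GGGCGG was present before 14 of the 15 (93.3%) and 3 of the 7 (42.9%), against 60.0%. TCACNCCAC was present before 1.20% of those tested genes. Whether the branches differ in these shares was not tested. A match describes letters and not a bound site, and the absence of a match says only that these letters are not in this window.

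The sterol sensing and transfer genes did not share the negative values. Of the 6 genes, 4 had a positive and 2 a negative difference, with a median of 0.06, and within slides 1 to 4 the medians were 0.04, 0.05, 0.12 and 0.05. Stard4, a cytosolic carrier of cholesterol and itself a target of SREBP-2, was at 2.16, 1.71, 1.28 and 1.78 in Sca-1- and at 1.66, 0.83, 1.09 and 1.54 in Sca-1+ replicates 1 to 4. It was lower on all 4 slides and its groups overlapped. Its difference was -0.45 ± 0.25 (SE; interval -1.01 to 0.11), with an adjusted p of 0.739 unpaired and 0.116 with the block in limma, and a second probe had a difference of -0.65.

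Insig1, which retains the Scap complex in the endoplasmic reticulum and is also a target of SREBP, was at 2.16, 2.02, 2.23 and 2.28 in Sca-1- and at 2.53, 2.10, 2.40 and 2.37 in Sca-1+ replicates 1 to 4. It was higher in the Sca-1+ sample of every slide, and its groups overlapped through Sca-1+ replicate 2 only. Its difference was 0.18 ± 0.14 (SE; interval -0.13 to 0.49), with an adjusted p of 0.936 unpaired and 0.272 with the block in limma. Srebf1, the gene of SREBP-1, was also higher on every slide, by 0.12, 0.06, 0.95 and 0.18, so that slide 3 set most of its difference of 0.33 (interval -0.48 to 1.14). Srebf2, the gene of SREBP-2, was higher on 3 of 4 slides with a difference of 0.09 (interval -0.85 to 1.03), and a second detected probe had a difference of 0.51. Scap and Insig2 had differences of 0.04 and -0.01, with slide values between -0.04 and 0.11 for both, and for these genes any difference was smaller than the spread between slides.

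In fatty acid synthesis, 8 of the 9 tested genes had a negative and 1 a positive difference, with a median of -0.13, and 5 were lower on all 4 slides (Acly, Acaca, Fasn, Scd2 and Elovl6). Without Sca-1- replicate 4, 4 of the 9 were negative and the median was 0.01, and without Sca-1+ replicate 4 the median was -0.37. Elovl6, the elongase that takes C16 to C18 fatty acids, was at 1.60, 0.75, 0.47 and 1.20 in Sca-1- replicates 1 to 4. It was at 0.30, -0.39, -1.04 and 0.38 in Sca-1+ replicates 1 to 4. Every Sca-1+ array lay below every Sca-1- array, with the highest Sca-1+ value of 0.38 under the lowest Sca-1- value of 0.47. The group means were 1.01 ± 0.50 and -0.19 ± 0.66 (SD, n = 4 each), a 2.29-fold lower signal. The log2 difference was -1.19 ± 0.36 (SE; interval -2.03 to -0.36), with limma's adjusted p = 0.254 unpaired and 0.00766 with the slide as a block. On slides 1 to 4 it was lower by 1.31, 1.14, 1.51 and 0.82, the largest difference of the 36 genes on slides 1, 2, 3 and 4 alike. With the block and without the pair numbered 1, 2, 3 or 4, its adjusted p was 0.0470, 0.0405, 0.0477 and 0.0107, and it was 0.0539 with the block and no detection filter. Its probe lies on chr3:129341248-129341307 (mm9).

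Fasn, the fatty acid synthase that makes palmitate, was at -0.85, -1.29, -1.19 and -0.37 in Sca-1- and at -1.58, -1.71, -1.62 and -0.50 in Sca-1+ replicates 1 to 4. On slides 1 to 3 its Sca-1+ arrays lay below every Sca-1- array, while both slide 4 arrays were above all others. Its difference was -0.43 ± 0.32 (SE; interval -1.15 to 0.29), with an adjusted p of 0.916 unpaired and 0.0904 with the block in limma. Scd2, a desaturase that puts the first double bond into stearate and palmitate, was at 5.09, 4.06, 3.94 and 5.54 in Sca-1- and at 4.24, 3.46, 3.46 and 5.29 in Sca-1+ replicates 1 to 4. Its levels varied more between slides than between fractions, and its slide differences were -0.85, -0.59, -0.48 and -0.25. Its difference was -0.54 ± 0.50 (SE; interval -1.69 to 0.61), with an adjusted p of 1.00 unpaired and 0.0546 with the block in limma.

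The enzymes that feed the branch had small negative values on every slide. Acly, which makes cytosolic acetyl-CoA from citrate, had a difference of -0.13, with slide values between -0.19 and -0.04. Acaca, the acetyl-CoA carboxylase, had a difference of -0.22, with slide values between -0.41 and -0.05. The other elongases and the front-end desaturases had no common direction over the slides: the differences were -0.04 for Elovl1, 0.04 for Elovl5, -0.09 for Fads1 and -0.03 for Fads2. Fads1, which makes arachidonate from its precursor, ran from -0.80 on slide 1 to 0.59 on slide 2.

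Set side by side, the sterol and the fatty acid branch moved alike from slide to slide. The fatty acid medians within slides 1 to 4 were -0.43, -0.30, -0.05 and -0.11, next to the sterol medians of -0.46, -0.34, -0.10 and -0.10. The difference between the branch medians was -0.11 over all arrays and -0.02, -0.04, -0.05 and 0.01 within slides 1 to 4. The value over all arrays is not the mean of the slide values, since each is a difference of medians. Within slides the difference had no common sign, with an SD of 0.03 over the 4 slides, and the value over all arrays lay outside the range of the slide values. The sterol branch had its values closer together, with extremes of -0.74 and 0.04, whereas the fatty acid genes ran from -1.19 to 0.04 around 1 gene far below the rest.

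The LXR genes lay near 0. Nr1h2, the gene of the widely expressed LXR beta, was at 4.26, 4.53, 4.27 and 4.92 in Sca-1- and at 4.54, 4.42, 4.40 and 4.93 in Sca-1+ replicates 1 to 4, a difference of 0.08 (interval -0.37 to 0.53). Nr1h3, the gene of LXR alpha, was at -3.10, -3.26, -2.80 and -2.72 in Sca-1- and at -3.11, -2.86, -2.98 and -2.79 in Sca-1+ replicates 1 to 4, a difference of 0.04 (interval -0.33 to 0.40). For both genes the fractions overlapped. Abcg1, a sterol exporter and LXR target, had a difference of -0.03 with slide values between -0.13 and 0.07, although its levels ran from 3.70 to 5.75 over the Sca-1+ arrays. No difference was tested for Abca1, the other exporter. None of these genes passed either limma fit.

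Genes around both branches were grouped in lists by their place in lipid metabolism, with 10 to 17 tested genes each. Of these genes, 1 was called in the unpaired and 5 in the blocked fit, beside 1.71% and 6.22% of all tested genes. At an unadjusted p under 0.05, the shares of all tested genes were 8.96% unpaired and 24.3% blocked. Of the 17 tested genes of fatty acid supply, elongation partners and activation, 1 was called in the unpaired fit, Hacd1, and with the slide as a block Hacd1 and Acsl3 were called lower and Acacb higher, where 6.22% of all tested genes were called in either direction. Hacd1, a 3-hydroxyacyl-CoA dehydratase that works with the elongases, was at 1.09, 0.73, 0.74 and 0.72 in Sca-1- and at -0.11, -0.27, -0.22 and 0.27 in Sca-1+ replicates 1 to 4. The fractions did not overlap, and the fall was 0.90 ± 0.17 (SE, adjusted p = 0.0363 in the unpaired limma fit). Acacb, the mitochondrial-surface acetyl-CoA carboxylase whose product restrains fatty acid oxidation, differed by 0.85 ± 0.23 (SE), with an adjusted p of 0.163 unpaired and 0.0234 with the block in limma. Acsl3, an acyl-CoA synthetase of the lipid droplet, differed by -0.60 ± 0.39 (SE), with an adjusted p of 0.857 unpaired and 0.0361 with the block in limma. Tecr, the reductase of the elongation cycle, differed by -0.20. The median of this list was -0.09.

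Of 13 genes of isoprenoid use, 0 were called unpaired (2 at an unadjusted p under 0.05) and 1 with the block in limma (2 at an unadjusted p under 0.05, where 24.3% of all tested genes stood at that p in either direction), Rabggta, a subunit of the enzyme that prenylates Rab proteins, which differed by 0.67 ± 0.17 (SE, adjusted p = 0.149 unpaired and 0.0240 with the block). Pdss1, which makes the ubiquinone side chain, differed by -0.52, and the list's median was 0.00. Of 14 genes of glycerolipid synthesis, 0 were called unpaired (1 at an unadjusted p under 0.05) and 1 with the block in limma (6 at an unadjusted p under 0.05, against the same 24.3%), the acyltransferase gene Agpat3, at 0.90 ± 0.21 (SE, adjusted p = 0.0965 unpaired and 0.0179 with the block). The list's median was -0.01. In sterol uptake, storage and transport 0 of 14 tested genes were called in either limma fit. At an unadjusted p under 0.05 stood 1 unpaired and 5 blocked, against 8.96% and 24.3% of all tested genes. Lipa, the lysosomal acid lipase that frees cholesterol from its esters, came closest, with a difference of 0.42 ± 0.12 (SE, adjusted p = 0.205 unpaired and 0.0546 with the block) and fractions that did not overlap.

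Of 10 tested genes of SREBP processing and degradation, 0 were called in either limma fit. At an unadjusted p under 0.05 stood 0 unpaired and 1 blocked, against 8.96% and 24.3% of all tested genes. The list's median was 0.00, and Erlin1, a part of the complex that marks sterol-regulated proteins for degradation, had the smallest p with a difference of -0.32. Of 16 genes of fatty acid oxidation, 0 were called in either limma fit (0 unpaired and 1 blocked at an unadjusted p under 0.05, against the same shares). Their median was 0.01, and all differences lay between -0.22 and 0.22. Of the 20 proliferation genes, 17 were called lower unpaired and 19 with the block, where 1.58% and 4.12% of all tested genes were, on slide medians of -2.10, -1.97, -2.12 and -1.66.

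**Figure D3:**
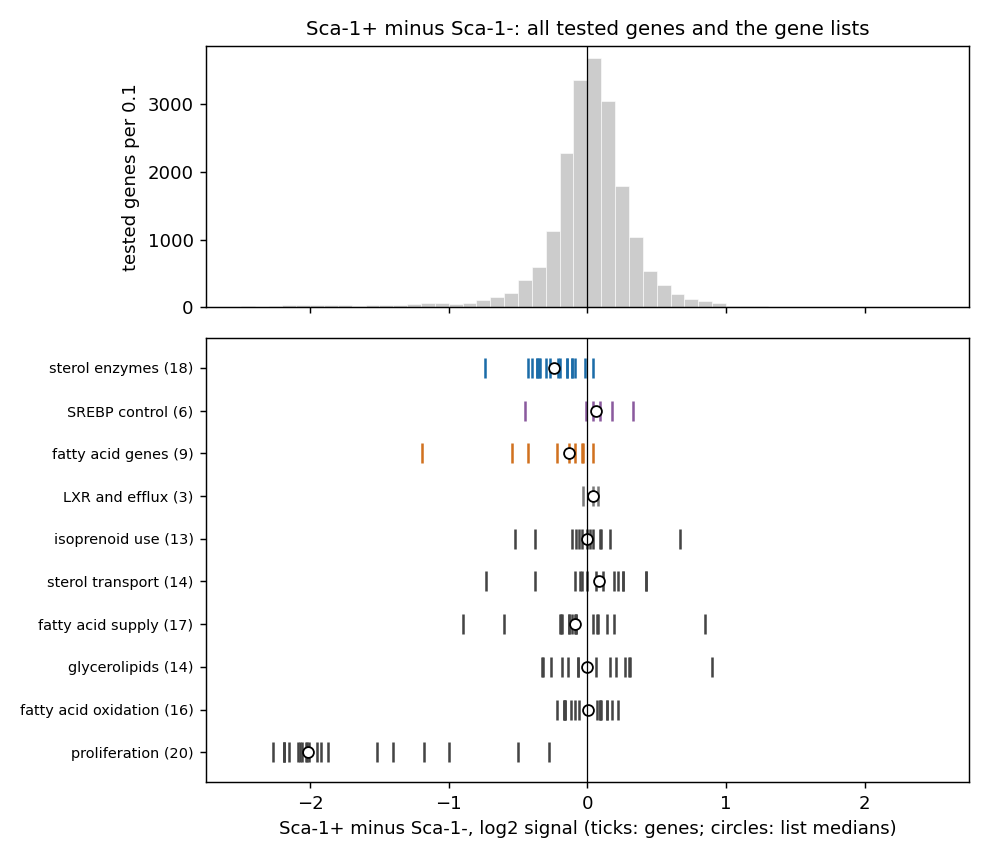
Top, the number of tested genes per 0.1 of log2 difference, Sca-1+ minus Sca-1- (x axis), for all 19825 tested genes. Bottom, each gene of the lists as a tick and each list's median as a circle, with the number of tested genes in brackets; the sterol median stands at -0.24, the fatty acid median at -0.13 and the proliferation median at -2.02.

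Slide 4 differed from the others in the level of these genes in both fractions. Of the 36 tested genes, 34 had a higher mean level on slide 4 than on slides 1 to 3, with a median of 0.73, while the median over all tested genes was -0.06 and 46.6% of them were higher. Dhcr7 was higher on slide 4 by 1.60, Nsdhl by 1.41, Abcg1 by 1.38, Scd2 by 1.37 and Srebf2 by 1.28. Ebp and Pmvk, at -0.08 and -0.15, were the only tested genes of the 36 that were not higher there. The shift runs across sterol, fatty acid and LXR genes, and only Fdps (-0.74) and Elovl6 (-1.19) differed between the fractions by more than its median size. The scan session and the protocol version changed with that slide, and their part in the shift was not tested. The fractions differed least on the same slide for Fdps and Elovl6, and without replicate 4 of both groups the sterol median kept its sign.

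**Figure D4:**
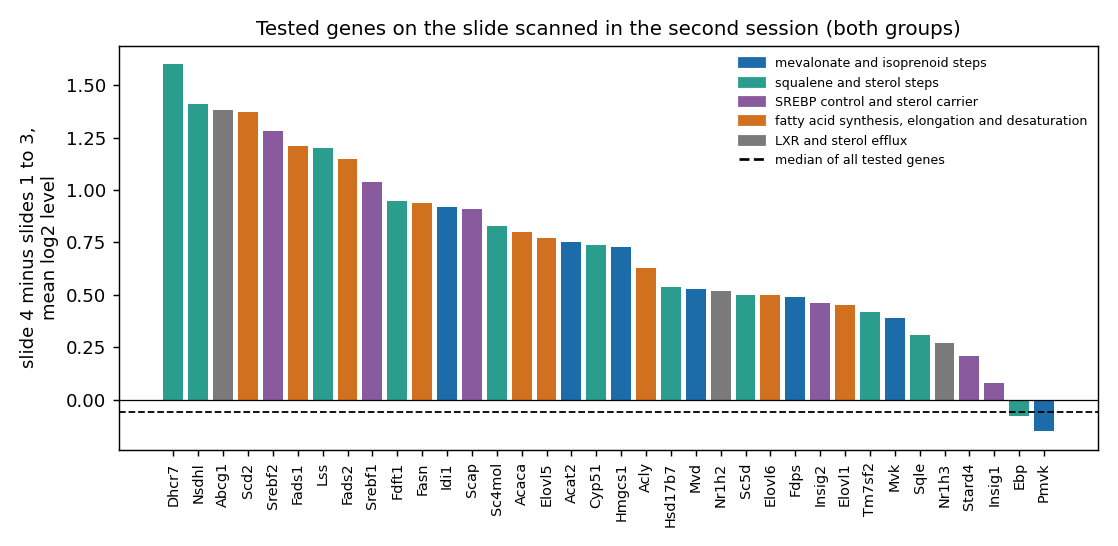
Mean level over both fractions on slide 4 minus that on slides 1 to 3 (y axis, log2) for the 36 tested genes (x axis), coloured by group of genes, with a dashed line at the median of all tested genes (-0.06). Bars start at 0, and 34 of 36 are positive, from Dhcr7 at 1.60 down to Pmvk at -0.15.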

How the data were processed

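Expression was measured in 4 Sca-1- and 4 Sca-1+ samples on 1-colour arrays. The authors extracted spot intensity with Agilent Feature Extraction 10.7.3.1, per the file headers, whose processed intensity is already background-corrected. The deposited series value table by the authors holds log2 values with a between-array step, and it was used as an alternative. Control and outlier spots were left out, repeat spots were averaged after taking log2, and each array's 75th percentile was subtracted. Probe names came from the files, updated through accessions (26582 probes) or symbols (3094) in RefSeq's gene table.

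Genes well above background on at least 4 of 8 arrays entered lmFit and eBayes of limma 3.58.1 (R 4.3.3 with version 1.17.8 of data.table), unpaired and two-sided. P-values were adjusted by Benjamini-Hochberg over all 19825 tested genes at a threshold of 0.05, and the interval given with a difference is the 95% confidence interval of that fit. The fits were tested on simulated data. The genes and lists were chosen with earlier results of these data known.

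Arrays with the same replicate number shared a slide, per the file headers, and their deviations from the group means correlated at 0.44, 0.43, 0.64 and 0.89 for numbers 1 to 4. Number 2 reached 0.54 with an array of another number. Since every pair shares a slide and lies above 0.1, the numbers were treated as pairs in the blocked fit, which adds the slide. Values on every array are given for those of the 38 genes called in either fit, for the 2 genes of each group with the smallest unadjusted p, and, chosen after their values were seen, for Scd2 and Hacd1. Of each other list, up to 4 genes with the smallest unadjusted p could be named. The alternatives were other background corrections, scalings, detection filters, probe averaging, array weights and left-out replicates. The exon or untranslated region under each probe was not analysed here, and the number of arrays limits the precision. Figures were drawn with Python 3.11.15 and matplotlib 3.10.9.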

Additional observations from a re-analysis of the deposited data

Results flagged for a closer look

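The 36 tested genes were examined for a single array far from the other 3 of its group, by the gap to the nearest array over the group's range against Dixon's 95% critical value. Of 72 groups, 10 were past it, and in all 10 the distant array was replicate 4, as the highest. Chance gives about 1 in 20 only for independent groups of arrays drawn alike. The 72 groups share the same arrays, and replicate 4 had another scan session and protocol version. The count of 10 therefore cannot be set against chance. No share of groups past the value is given for all tested genes, so whether these genes stand out was not tested. In Sca-1- pDC the ratio was 0.833 for Scap (6.40 against 5.53 for the nearest array) and 0.849 for Elovl5 (4.06 against 3.35). In Sca-1+ pDC it was 0.896 for Fdft1 (3.05 against 2.07), 0.981 for Lss (1.91 against 0.56), 0.847 for Cyp51 (1.4 against 0.57) and 0.831 for Dhcr7 (3.06 against 1.55). It was 0.848 for Scap (6.36 against 5.56), 0.849 for Srebf2 (3.18 against 1.97), 0.897 for Fasn (-0.50 against -1.58) and 0.859 for Fads2 (1.84 against 0.67), also in Sca-1+ pDC. Scap was past the value in both fractions. Replicate 4 of both groups lay on the slide scanned in the second session. The part of that session, the protocol version or the cell mix in these values was not tested.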

How the results depend on the processing

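Only the fits with the slide or replicate number as a block, or with array weights, and the unpaired fit without replicate 4 called any of the 36 genes. The replicate block called 2 (Elovl6 and Fdps), and array weights without it called 3 (with Mvd). With the block added to other choices, and chosen after seeing the data, the count was 7 with normexp (with Hmgcs1, Idi1, Mvd, Scd2 and Stard4), 2 with quantile scaling, with the median of detected probes or with the authors' series values, 3 for genes detected on all 8 arrays (with Scd2), 1 with array weights (Elovl6) and 0 with no detection filter. Leaving out replicates gave 0 to 2. Of all 19825 tested genes, 1233 were called with the block, 1470 with array weights alone, 2129 with block and normexp, and 1 to 941 without replicates. With the block, 1720 of 17688 genes detected on all 8 arrays were called, and 312 of 36095 with no filter. Quantile scaling, the detected-probe median, series values and array weights, each with the block, called 1235 to 1261 of 19825. For the other pathway lists, where 1 gene was called and all alternatives were chosen after seeing the data, the count was 5 with the block, 6 with array weights, 0 with no filter, 8 with block and normexp, 6 with block and quantile scaling or series values, 5 with block and the detected-probe median, 7 with block and all 8 arrays, 5 with block and weights, 0 with block and no filter, and 0 to 5 without replicates.

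The sterol median stayed below 0 in all settings run, from -0.46 within slide 1 to -0.10, and was -0.43 to -0.14 without replicates. The fatty acid median was -0.43 within slide 1 and -0.37 to 0.01 without replicates. The branch difference was -0.06 with normexp, with or without the block, -0.15 with array weights, -0.04 with block and weights, -0.02, -0.04, -0.05 and 0.01 within slides, and -0.16 to -0.03 without replicates. The causes were not tested, except that leaving out 1 array of slide 4 leaves that slide in 1 group only.

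Some uncalled differences near 0 changed sign. With quantile scaling Pmvk was 0.03, Insig2 0.01, Elovl1 0.02 and Abcg1 0.02, and with series values 0.02, 0.01, 0.02 and 0.02, each also with the block. Fdft1 was 0.12 as a mean of its probes. With block and weights Elovl1 was 0.01, Fads2 0.02 and Nr1h3 -0.02. Without replicates the ranges were Acat2 -0.30 to 0.08, Pmvk -0.07 to 0.02, Fdft1 -0.41 to 0.07, Nsdhl -0.49 to 0.22, Ebp -0.26 to 0.01, Dhcr7 -0.37 to 0.44, Insig2 -0.12 to 0.10, Scap -0.18 to 0.27, Srebf2 -0.24 to 0.40, Acly -0.31 to 0.01, Elovl1 -0.17 to 0.06, Elovl5 -0.14 to 0.24, Fads1 -0.37 to 0.23, Fads2 -0.34 to 0.23, Abcg1 -0.39 to 0.30, Nr1h3 -0.09 to 0.12 and Nr1h2 -0.04 to 0.22.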
